A study of Sus scrofa with 6 samples.

Results

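Detoxifying enzymes of 8 gene families were compared between 2 pig cell lines, OBGF400 and PK15. The members were picked out by gene symbol: cytochromes P450 (CYP), flavin monooxygenases (FMO), aldehyde dehydrogenases (ALDH), aldo-keto reductases (AKR), quinone reductases (NQO), glutathione transferases (GST), sulfotransferases (SULT) and glucuronosyltransferases (UGT). The retinaldehyde dehydrogenases of the ALDH1A group and the sterol demethylase CYP51 were left out. This gave 56 of the 6765 genes named on the array, with 27 CYP, 10 ALDH, 6 GST, 5 AKR, 3 SULT, 2 FMO, 2 NQO and 1 UGT. Per the labels, OBGF400 is a neuroblast line from the olfactory bulb and PK15 a line that is not neuronal and of epithelial origin. Neither line was treated. Each line was represented by 9 cultures, whose RNA was mixed into 3 pools, and each pool was put on 1 Affymetrix porcine array. Both media held 10% bovine calf serum, penicillin, streptomycin and gentamicin. OBGF400 was grown in DMEM/F12/HAM, and PK15 in minimum essential medium with amphotericin B added, so line and medium cannot be told apart. Each line stands for itself and not for a tissue. The p-values set the difference between the lines only against the spread between RNA pools within a line. Fewer cells with a transcript and less of it per cell cannot be told apart in such RNA.

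Detoxification is usually described in steps. Phase I enzymes such as CYP, FMO, ALDH, AKR and NQO oxidise or reduce a foreign or endogenous compound. Phase II enzymes such as GST, SULT and UGT then attach glutathione, sulfate or a sugar acid, and membrane pumps carry the conjugate out. Liver and kidney tubule are known for many of these enzymes, and the olfactory mucosa, which meets inhaled compounds, is known for several CYP and conjugating enzymes. The family names do not fix the role: several members chosen here act in making steroids, bile acids, proline or carnitine.

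The deposited values were taken to be log2 signals. The lowest value in the table, 2.13, is called the floor here, and a gene counts as at the floor in a line where none of its 3 arrays lies more than 0.1 above it. A floor reading does not show that a transcript was absent, since several genes had a probe set with a clear signal and another at the floor. A difference from a gene at the floor depends on where the floor lies, so the difference after adding 32 to the linear signals is given beside it. All differences are OBGF400 minus PK15 with their SE, and a gene is called higher or lower where limma gave an adjusted p (Benjamini-Hochberg over all 6765 genes) under 0.05. Signals of different probe sets are not compared as levels.

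The arrays of a line resembled each other closely, with correlations across probe sets of 0.997 to 0.998 in OBGF400 and 0.996 in PK15, against 0.860 to 0.865 between the lines. All 6 epithelial markers (EPCAM, KRT8, KRT18, KRT19, CDH1 and CLDN4) were lower in OBGF400, with a log2 summed signal of 4.99 to 5.15 there and 16.24 to 16.27 in PK15. Of 8 measured neuronal markers UCHL1, MAP2 and NCAM1 were higher in OBGF400, and STMN2, SYT1, GAP43, SNAP25 and ENO2 were at the floor in both lines. Of 5 mesenchymal markers 4 were higher in OBGF400, with a summed signal of 15.94 to 16.00 against 5.03 to 5.59. Of 6 hepatocyte markers 5 were at the floor in both lines, ALB among them, and APOA1 was lower in OBGF400 (-2.26). Of the 4 measured proximal tubule markers only HNF4A was called (-5.47). Of the 4 measured leukocyte markers PTPRC was at the floor in both lines, CD14 was higher in OBGF400 and AIF1 and SPI1 were lower, with a summed signal of 6.09 to 6.45 in OBGF400 and 10.72 to 10.93 in PK15. None of the 6 listed neuroblast and progenitor markers (DCX, TUBB3, SOX2, NES, PAX6 and SOX11) has a named probe set here, and they were not analysed here. GFAP, of 4 measured astrocyte markers, and CDH5, of 4 endothelial ones, were lower in OBGF400. The part of these cell type differences in the results below was not tested.

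Of the 56 detoxifying enzyme genes, 9 were higher in OBGF400, 14 were lower and 33 were not called. Among all genes 60.8% were called, 23.9% higher and 36.8% lower, against 41.1% of the members. At the floor in both lines were 19 members (33.9%), against 15.5% of all genes. Among the 37 members above the floor in at least 1 line 62.2% were called, against 71.9% of all such genes. The arrays of 27 members (48.2%) did not overlap between the lines, against 66.3% of all genes. The median difference of the members was 0.0. Called with a difference of at least 1 and no overlap were 13 members, 3 higher and 10 lower; among all genes these shares were 35.7%, 13.8% and 22.0%. After scaling to the hybridization controls 41 members were higher and 9 lower, and after scaling to the spiked dap and thr transcripts 4 were higher and 47 lower. All genes had a median difference of 0.82 after the first and -0.86 after the second. Both move floor values too, so the split between higher and lower depends on the scaling.

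**Figure D1:**
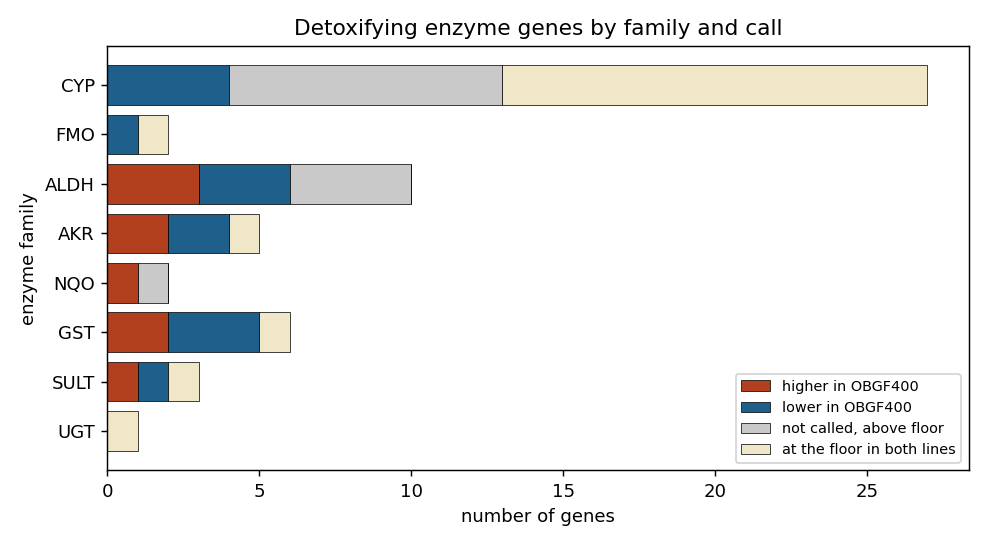
Number of genes (horizontal axis) in each enzyme family (vertical axis), split by whether the gene was called higher or lower in OBGF400, was not called, or lay at the floor in both lines. Of 27 CYP genes 14 were at the floor in both lines and none was called higher, whereas ALDH, AKR and GST had calls in both directions. Of all genes 60.8% were called.

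The families differed in how many members gave a signal. Of 27 CYP genes, 4 were lower in OBGF400, 0 were higher by limma and 14 were at the floor in both lines; without adjustment CYP19A3 had a p of 0.0481 for a difference of 0.23. Of the 29 other members, 9 were higher, 10 lower and 5 at the floor in both lines. Called were 14.8% of the CYP genes and 65.5% of the others, against 60.8% of all genes. Among genes above the floor in at least 1 line these shares were 30.8%, 79.2% and 71.9%. The lower CYP genes were CYP26A1, CYP2C91, CYP3A39 and CYP3A46. Among the other families, the higher members were AKR1CL1, AKR1E2, ALDH1L2, ALDH2, ALDH3A2, GSTA4, GSTO1, NQO1 and SULT1A3.

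CYP enzymes of steroid, sterol and bile acid metabolism gave no call among 8 measured genes, where 60.8% of all genes were called. CYP11A1, which opens steroid synthesis by cleaving the cholesterol side chain, CYP17A1, which makes androgen precursors, the bile acid enzymes CYP7A1 and CYP8B1, and the sterol hydroxylase CYP27A1 were at the floor in both lines. CYP19A1, an aromatase that makes oestrogens, lay between 2.18 and 2.29 on all arrays. CYP39A1, an oxysterol hydroxylase, had signals of 6.79, 6.25 and 6.48 in OBGF400 and 6.35, 6.42 and 6.57 in PK15. The arrays overlapped, and the difference was 0.06 ± 0.16 (limma, adjusted p = 0.877). CYP19A3, another aromatase gene of the pig, was read by 8 probe sets. The one with the highest mean gave 8.58, 8.47 and 8.49 in OBGF400 and 8.32, 8.40 and 8.12 in PK15, while the other 7 were at the floor in both lines. The difference of 0.23 ± 0.09 was not called (adjusted p = 0.0761, limma), was called without PK15 replicate 2 (0.29), was 0.15 without PK15 replicate 3 and became -0.62 under dap and thr scaling. The value therefore rests on 1 of 8 probe sets, and what the lone probe set binds was not tested.

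CYP26A1, which hydroxylates retinoic acid and so ends its action, was lower in OBGF400. Its signals were 2.50, 2.13 and 2.50 in OBGF400 and 7.62, 7.85 and 7.73 in PK15. OBGF400 lay close to the floor and all 3 PK15 arrays were far above it. The difference was -5.36 ± 0.13 (limma, adjusted p = 1.29e-05), or -2.72 with 32 added. Of the vitamin D enzymes, CYP27B1, which activates the hormone, was at the floor in both lines. CYP24A1, which inactivates it, gave 3.30, 3.21 and 3.53 in OBGF400 and 3.58, 3.87 and 4.17 in PK15. These low signals did not overlap, but the difference of -0.53 ± 0.18 was not called (adjusted p = 0.064, limma). It was called without PK15 replicate 1 (-0.67), with median centring (-0.61) and with a filter on dim probe sets (-0.53). Scaling on dap and thr (-1.38) or all poly-A controls (-0.85) called it too, but it became 0.30 under hybridization control scaling.

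The CYP families 1 to 3 hold the enzymes best known for drugs and other foreign compounds. Of 16 such genes, 3 were lower in OBGF400, 0 were higher by limma and 8 were at the floor in both lines: CYP2A19, CYP2C32, CYP2C36, CYP2C42, CYP2C49, CYP2J34, CYP3A22 and CYP3A29. Called were 18.8% of the 16, against 60.8% of all genes. No gene of the 16 had an unadjusted p under 0.05 with a higher signal in OBGF400. CYP3A46, a member of the drug-metabolising CYP3A subfamily, was lower in OBGF400. It gave 2.17 on each OBGF400 array and 9.21, 9.20 and 9.00 in PK15. OBGF400 was thus at the floor, and the difference was -6.96 ± 0.06 (limma, adjusted p = 6.94e-07), or -4.02 with 32 added. In the RefSeq annotation of the pig assembly Sscrofa11.1 CYP3A46 lies directly beside CYP3A22 and CYP3A29, both of which were at the floor in both lines. CYP3A39 gave 3.07 on each OBGF400 array and 3.70, 4.09 and 4.53 in PK15. The difference of -1.04 ± 0.23 (limma, adjusted p = 0.0145) shrank to -0.29 with 32 added, and the call ended when any 1 OBGF400 array (replicate 1, 2 or 3) was left out (-1.04 each) or under hybridization control scaling (-0.21). A second CYP3A39 probe set was at the floor in both lines, and the mean of both differed by -0.52.

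CYP2C91 was lower in OBGF400, with 2.16, 2.16 and 2.13 there and 9.06, 8.66 and 8.70 in PK15. OBGF400 was at the floor and all 3 PK15 arrays were far above it. The difference was -6.66 ± 0.12 (limma, adjusted p = 5.24e-06), or -3.72 with 32 added. RefSeq classes this gene as a transcribed pseudogene, so its signal is that of an RNA with no enzyme known from it. It lies directly beside CYP2C42, which was at the floor in both lines. The other measured CYP2C genes were CYP2C32, CYP2C36 and CYP2C49, at the floor in both lines, and CYP2C33, with 2.32, 2.74 and 2.14 in PK15 and the floor in OBGF400. CYP2C and CYP3A genes are close paralogs, and binding of a probe set to a relative was not tested.

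Other CYP genes of these families gave no call. CYP1A1, the classic target gene of the aryl hydrocarbon receptor, had 4.35, 4.29 and 4.19 in OBGF400 and 4.35, 4.68 and 4.59 in PK15. The lowest PK15 array equalled the highest OBGF400 array, and the difference of -0.26 ± 0.10 was not called (limma, adjusted p = 0.0887). It was called lower without PK15 replicate 1 (-0.36), and with quantile normalization or median centring (-0.34 each). Scaling on dap and thr (-1.12) or all poly-A controls (-0.59) called it lower too, and hybridization control scaling called it higher (0.56). CYP2D25, a vitamin D hydroxylase in the pig, gave 9.78, 9.69 and 9.84 against 9.62, 10.10 and 9.90, and a second probe set was at the floor in both lines. The arrays overlapped, with a difference of -0.10 ± 0.14 (limma, adjusted p = 0.616). The alcohol-metabolising CYP2E1 (2.28 to 2.65) and CYP2B22 (2.13 to 2.26) stayed near the floor on all arrays, and CYP2J34, of the fatty acid epoxygenase subfamily, was at the floor in both lines. Of the flavin monooxygenases FMO1 was at the floor in both lines, and FMO5 had 2.14, 2.14 and 2.17 against 2.64, 2.36 and 2.83. FMO5 was called lower (-0.46 ± 0.13, limma adjusted p = 0.0334), but the difference was -0.07 with 32 added and 0.36 under hybridization control scaling. The FMO5 call ended when any OBGF400 array (-0.47 to -0.45) or PK15 replicate 1 (-0.45) was left out, and with the replicate number as a block.

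**Figure D2:**
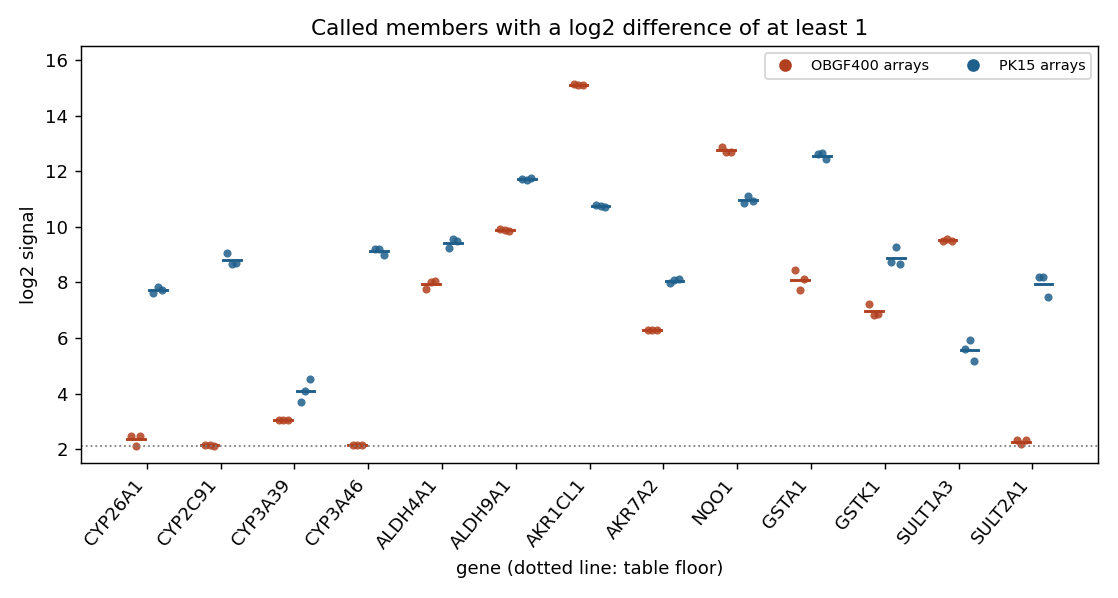
The log2 signal on each array (vertical axis, points; short bars are means of 3 arrays) for the 13 members that differed by at least 1 without overlap (horizontal axis). AKR1CL1, NQO1 and SULT1A3 were higher in OBGF400 and the other 10 lower, with CYP2C91 and CYP3A46 at the floor (dotted line, 2.13) in OBGF400.

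Of the 10 aldehyde dehydrogenases, 0 were at the floor in both lines. Enzymes of this family typically oxidise aldehydes to acids, though not every member does. Among the 10 genes 3 were higher and 3 lower in OBGF400 (60.0% called, against 60.8% of all genes). ALDH9A1, which acts in carnitine synthesis, gave 9.92, 9.89 and 9.86 in OBGF400 and 11.73, 11.67 and 11.75 in PK15. All PK15 arrays were above all OBGF400 arrays, a 3.54-fold difference (-1.82 ± 0.03, limma adjusted p = 3.17e-06). ALDH4A1, a mitochondrial enzyme of proline breakdown, gave 7.77, 8.03 and 8.06 against 9.25, 9.55 and 9.50, also without overlap (-1.48 ± 0.13, limma adjusted p = 0.000518). A second ALDH4A1 probe set, with means of 2.95 and 3.18, was not called, and the mean of both differed by -0.86. ALDH18A1, which works the other way and makes the proline precursor, was lower as well (-0.97 ± 0.05, limma adjusted p = 0.000111), though not under hybridization control scaling (-0.15). Both the proline-degrading and the proline-making member were thus lower in OBGF400 as deposited.

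ALDH2, ALDH3A2 and ALDH1L2 were higher in OBGF400 by small amounts, each with a sign that turned under dap and thr scaling. ALDH2, the mitochondrial enzyme that clears acetaldehyde, had means of 11.96 ± 0.11 and 11.60 ± 0.08 (SD, n = 3). Its difference was 0.37 ± 0.07 as deposited (limma, adjusted p = 0.0111) and -0.49 after that scaling. On all poly-A controls ALDH2 (0.04) and ALDH3A2 (0.42) were not called. ALDH3A2, the fatty aldehyde dehydrogenase, differed by 0.75 ± 0.05 (limma, adjusted p = 0.000279) and by -0.11 after it, and its second probe set was not called. ALDH1L2, a mitochondrial folate enzyme, differed by 0.85 ± 0.18 (limma, adjusted p = 0.013), by 0.43 with 32 added and by -0.01 after the scaling, and its call was lost with the replicate number as a block. Its cytosolic relative ALDH1L1, often used as an astrocyte marker, gave 4.46, 6.22 and 4.91 in OBGF400 and 3.80, 2.79 and 3.62 in PK15. The arrays did not overlap, yet with the wide spread the difference of 1.79 ± 0.58 was not called (limma, adjusted p = 0.0513). It was called without OBGF400 replicate 1 (2.16), with median centring (1.71) and under the 3 control scalings (0.94 to 2.62). With a filter on dim probe sets it was called as well (1.79). A second ALDH1L1 probe set was at the floor in both lines, and the mean of both differed by 0.90.

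For ALDH7A1, an enzyme of lysine breakdown, the 2 probe sets disagreed. The one with the higher mean gave 9.82, 9.94 and 9.64 in OBGF400 and 9.40, 9.62 and 9.47 in PK15, a difference of 0.31 ± 0.10 that was not called (limma, adjusted p = 0.0583). The other gave 9.69, 9.79 and 9.56 against 8.75, 8.36 and 8.48, a difference of 1.15 that was called (limma, adjusted p over probe sets = 0.00212), as were 41.9% of all probe sets. Without OBGF400 replicate 3 the first was called too (0.39), as it was with quantile normalization (0.34) and with dim probe sets filtered out (0.31). Hybridization control scaling called it higher (1.13) and dap and thr scaling lower (-0.55). The mean of both probe sets differed by 0.73 and was called. ALDH1B1, a mitochondrial enzyme, had overlapping arrays (4.6, 3.90 and 4.47 against 3.90, 3.90 and 2.70; 0.83 ± 0.43, limma adjusted p = 0.174). The ALDH1B1 difference was 0.42 without PK15 replicate 3, and it was called under hybridization control (1.65) and all poly-A control (0.50) scaling but was -0.03 under dap and thr scaling. ALDH5A1, which degrades the transmitter GABA by way of succinic semialdehyde, stayed between 2.13 and 2.35.

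**Figure D3:**
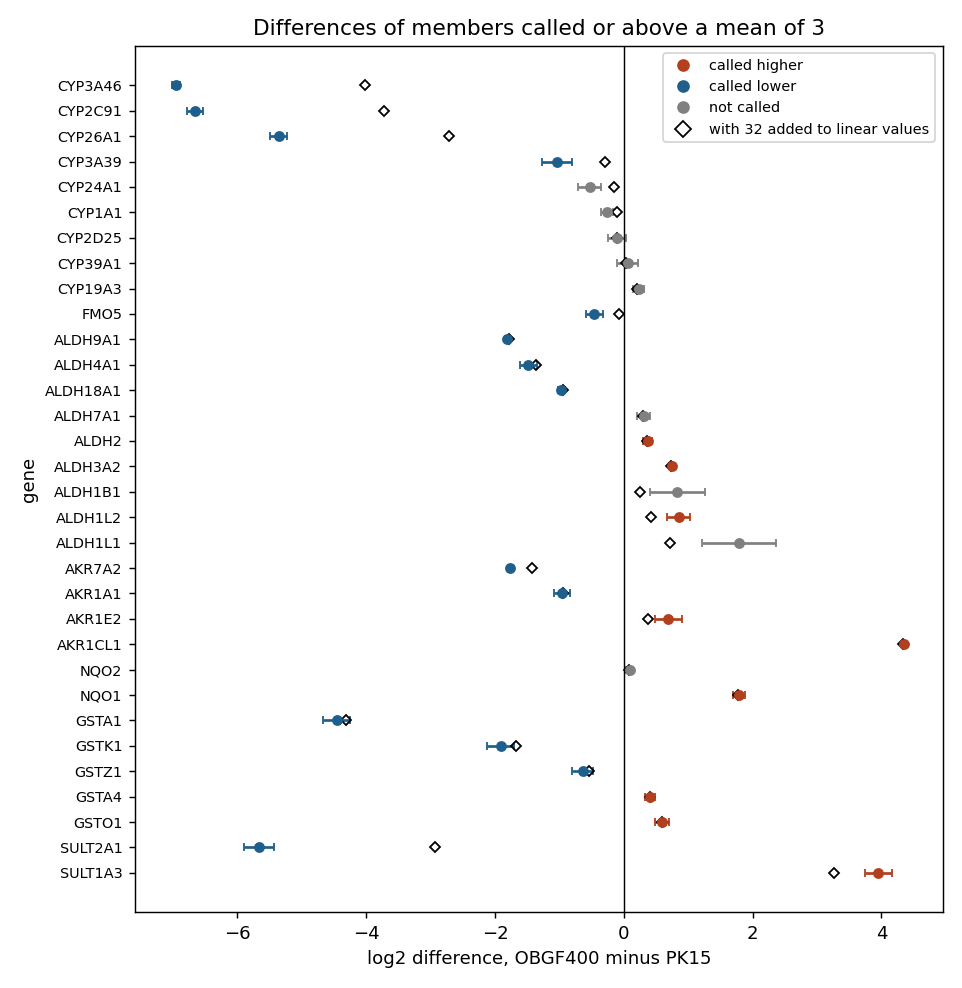
The log2 difference, OBGF400 minus PK15 (horizontal axis; filled points with SE bars, 3 arrays a line) of the 32 members that were called or had a mean above 3 in a line (vertical axis, by family), with open diamonds for the difference after adding 32 to the linear signals. CYP26A1, CYP2C91, CYP3A46 and SULT2A1 moved most toward 0 with 32 added, and AKR1CL1, GSTA1 and NQO1 little.

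Aldo-keto reductases turn aldehydes and ketones into alcohols. AKR1CL1, of the subfamily that reduces ketosteroids, was higher in OBGF400. It gave 15.14, 15.08 and 15.08 in OBGF400 and 10.79, 10.74 and 10.72 in PK15. Arrays of a line differed by less than 0.1 and the lines by 4.35 ± 0.03, which is 20.4-fold (limma, adjusted p = 2.88e-07). A second probe set was called higher too, with means of 4.99 ± 0.36 against 2.59 ± 0.08 (SD, n = 3; 2.40, limma adjusted p over probe sets = 0.000932), and the third was at the floor in both lines. The mean of the 3 probe sets differed by 2.25. AKR1C1 and AKR1E2 lie within 5 genes of AKR1CL1 in RefSeq: AKR1C1, a ketosteroid reductase, was at the floor in both lines. AKR1E2 was called higher (5.56, 5.85 and 5.61 against 5.10, 5.25 and 4.59; 0.69 ± 0.21, limma adjusted p = 0.0403). The difference was 0.38 with 32 added and -0.16 under dap and thr scaling. Leaving out any OBGF400 array (0.60 to 0.75), or PK15 replicate 1 (0.75), ended the call, as did scaling on all poly-A controls (0.36).

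AKR7A2 and AKR1A1, reductases for a broad range of aldehydes, were lower in OBGF400. AKR7A2 gave 6.30, 6.31 and 6.30 in OBGF400 and 7.99, 8.08 and 8.12 in PK15. No array of one line came near the other line, and the difference was -1.76 ± 0.04, or 3.39-fold (limma, adjusted p = 6.98e-06). AKR1A1 had means of 10.20 ± 0.05 and 11.16 ± 0.21 (SD, n = 3) and a difference of -0.96 ± 0.12 (limma, adjusted p = 0.00209) that was not called under hybridization control scaling (-0.13). The AKR family held calls in both directions.

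NQO1, which reduces quinones in one step and is a classic target gene of the stress factor NRF2, was higher in OBGF400. It gave 12.86, 12.69 and 12.70 in OBGF400 and 10.84, 11.12 and 10.93 in PK15. The lines did not overlap, and the difference was 1.79 ± 0.09, or 3.45-fold (limma, adjusted p = 0.00011). Its paralog NQO2, which uses another cosubstrate, gave 9.18, 9.12 and 9.09 against 8.93, 9.14 and 9.05. These arrays overlapped, and NQO2 was not called (0.09 ± 0.06, limma adjusted p = 0.306). The difference between the paralogs' differences was not tested.

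Glutathione transferases had signals in both lines for 5 of 6 genes, and all 5 were called, 2 higher and 3 lower, where 71.9% of all genes above the floor were called. GSTA1, an alpha-class enzyme abundant in liver and kidney tubule, was lower in OBGF400. Its probe set with the highest mean gave 8.46, 7.73 and 8.11 in OBGF400 and 12.62, 12.64 and 12.42 in PK15. OBGF400 had a clear signal but lay far below PK15, by -4.46 ± 0.21 or 22.0-fold (limma, adjusted p = 8.24e-05). That probe set is annotated to 2 transcript records, and the gene's other probe sets to 1 of them. The second gave 2.13, 2.13 and 2.14 against 5.70, 5.95 and 4.36 (-3.20, limma adjusted p over probe sets = 0.0059). The third was low in both lines, with means of 2.19 and 2.76, and was not called. The mean of the 3 probe sets differed by -2.74.

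GSTA4, the alpha-class enzyme for products of lipid peroxidation, went the other way as deposited although it lies within 5 genes of GSTA1 in RefSeq. It gave 11.04, 10.88 and 10.82 in OBGF400 and 10.47, 10.61 and 10.44 in PK15, a difference of 0.41 ± 0.08 (limma, adjusted p = 0.00932) that became -0.45 under dap and thr scaling and was not called on all poly-A controls (0.08). GSTA1 was lower in all alternatives run (-5.32 to -2.74). GSTK1, an enzyme of mitochondria and peroxisomes, was lower: 7.24, 6.83 and 6.88 against 8.74, 9.26 and 8.68, or 3.76-fold (-1.91 ± 0.21, limma adjusted p = 0.00131). GSTO1, which reduces dehydroascorbate, was higher by 0.60 ± 0.11 (limma, adjusted p = 0.00688) but differed by -0.25 under dap and thr scaling and was not called on all poly-A controls (0.28). GSTZ1, of tyrosine breakdown, was lower (-0.64 ± 0.16, limma adjusted p = 0.0207) but differed by 0.18 under hybridization control scaling. The GSTZ1 call ended when OBGF400 replicate 2 (-0.54), OBGF400 replicate 3 (-0.61), PK15 replicate 1 (-0.60) or PK15 replicate 2 (-0.60) was left out. GSTM3, the only mu-class gene named here, was at the floor in both lines. The second probe sets of GSTA4 and GSTZ1 were at the floor in both lines, and the mean of both differed by 0.20 for GSTA4 and by -0.32 for GSTZ1.

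**Figure D4:**
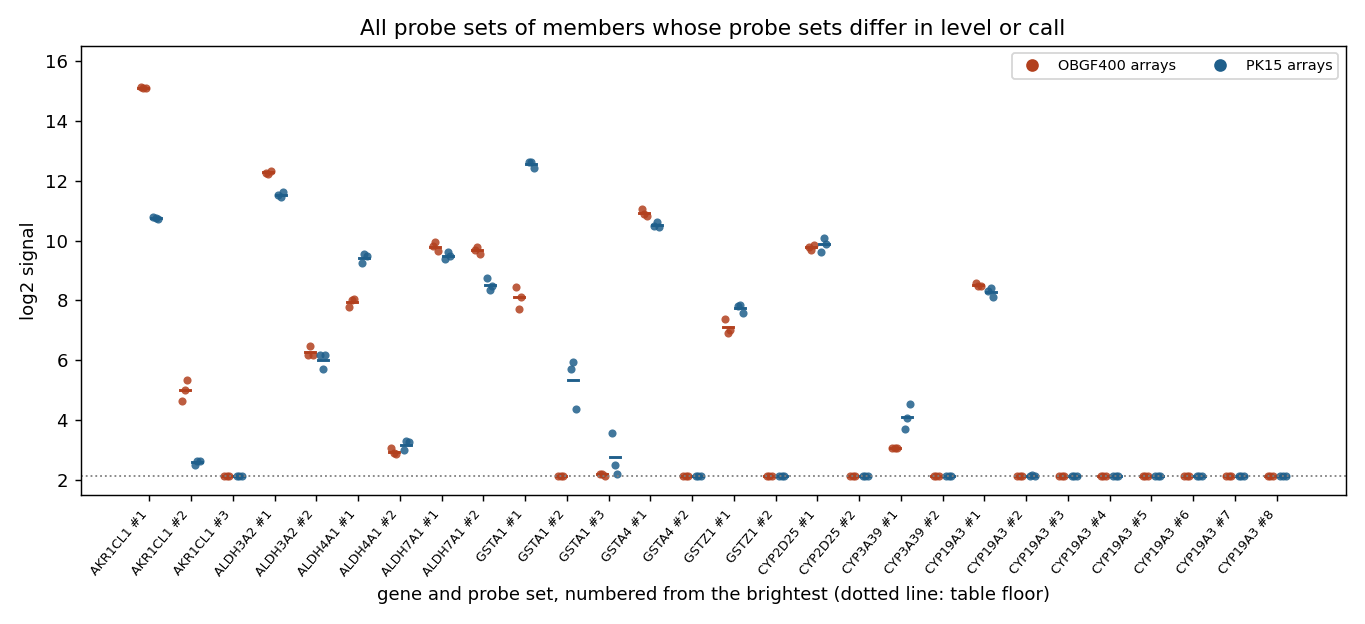
The log2 signal on each array (vertical axis, points; short bars are means of 3 arrays) for every probe set of 10 members whose probe sets differed in level or call (horizontal axis, numbered from the brightest). AKR1CL1 and GSTA1 each had 2 probe sets that differed between the lines in the same direction, while 7 of 8 CYP19A3 probe sets lay at the floor (dotted line, 2.13).

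Sulfotransferases split between the lines. SULT1A3, a phenol sulfotransferase, gave 9.48, 9.57 and 9.48 in OBGF400 and 5.60, 5.92 and 5.18 in PK15. All OBGF400 arrays were high and all PK15 arrays lower but above the floor, a difference of 3.95 ± 0.21 or 15.4-fold (limma, adjusted p = 0.000113), and 3.26 with 32 added. SULT2A1, which sulfates steroid alcohols and bile acids, showed the reverse, with 2.33, 2.19 and 2.33 in OBGF400 and 8.19, 8.21 and 7.48 in PK15. OBGF400 was close to the floor, and the difference was -5.67 ± 0.23 (limma, adjusted p = 5.35e-05), or -2.93 with 32 added. SULT1E1, the oestrogen sulfotransferase, was at the floor in both lines, as was UGT2B31, the only glucuronosyltransferase named here, on both of its probe sets.

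The enzymes depend on cosubstrates, electron donors, receptors and pumps. Of 51 measured partner and regulator genes in 5 lists, 17 were higher in OBGF400, 21 lower and 13 not called, against the 60.8% of all genes that were called. Hybridization control scaling gave 31 higher and 11 lower, and dap and thr scaling 8 higher and 35 lower. All 13 measured genes of the NRF2 pathway and of glutathione and NADPH supply were called, 7 higher and 6 lower. TXNRD1, thioredoxin reductase, was higher by 2.71 ± 0.21 and TALDO1, of the pentose phosphate pathway, by 0.98 ± 0.08 (not called under dap and thr scaling, 0.12). The 2 subunits of glutamate-cysteine ligase, which makes the precursor of glutathione, went opposite ways. Its catalytic subunit GCLC gave 9.84, 9.67 and 9.51 in OBGF400 and 7.57, 7.22 and 7.77 in PK15, a difference of 2.16 ± 0.18 (limma, adjusted p = 0.000459). Its modifier subunit GCLM gave 7.54, 7.33 and 6.83 against 9.47, 9.49 and 9.6, a difference of -2.29 ± 0.20 (limma, adjusted p = 0.000593). Of 5 GCLC probe sets, 3 were higher and 2 at the floor in both lines, with a mean difference of 1.33. A second GCLM probe set was at the floor in both lines, and the mean of both differed by -1.14. Glutathione synthetase GSS (-1.09 ± 0.10; not called under hybridization control scaling, -0.27) and the NADPH-making IDH1 (-2.93 ± 0.05) were lower.

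Of 7 measured xenobiotic receptors and partners, 5 were at the floor in both lines: ARNT, the partner of the aryl hydrocarbon receptor, the pregnane X receptor NR1I2, RXRA, PPARA and CEBPA. Whether their probe sets can detect these transcripts was not tested. Called were 28.6% of the 7, against 60.8% of all genes. AHR, the aryl hydrocarbon receptor, was at the floor in PK15 (2.23, 2.13 and 2.13) and gave 6.81, 6.82 and 7.03 in OBGF400, a difference of 4.72 ± 0.08 (2.04 with 32 added; limma, adjusted p = 3.6e-06). The other 2 AHR probe sets were at the floor in both lines, and the mean of the 3 differed by 1.57. HNF4A, a factor of liver and kidney tubule genes, gave 3.93, 3.42 and 3.98 against 9.00, 9.58 and 9.16. The difference was -5.47 ± 0.24, or -3.80 with 32 added (limma, adjusted p = 6.46e-05). A second HNF4A probe set was lower too (-1.86), and the mean of both differed by -3.67. Of 7 electron donor and heme genes 5 were lower and 1 higher (85.7% called, against 60.8% of all genes). POR, the reductase that feeds electrons to microsomal CYP enzymes, was not called (-0.21 ± 0.15, limma adjusted p = 0.311). The mitochondrial donors FDX1 (-1.44 ± 0.07) and FDXR (-1.56 ± 0.13; -0.96 with 32 added; -2.55 for the mean of its 3 probe sets) and the cytochrome CYB5B (-1.48 ± 0.08) were lower, and PGRMC1, a heme-binding partner of CYP enzymes, was higher (1.15 ± 0.05; not called under dap and thr scaling, 0.29).

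Of 17 other phase I and phase II enzymes and cosubstrate genes, 7 were higher and 7 lower (82.4% called, against 60.8% of all genes). MAOA, which oxidises monoamines, gave 10.46, 10.41 and 10.43 in OBGF400 and 2.28, 2.28 and 2.32 in PK15, a difference of 8.14 ± 0.02 (5.26 with 32 added; limma, adjusted p = 2.19e-08). PAPSS2, which makes the sulfate donor used by SULT enzymes, was higher by 4.95 ± 0.24, whereas PAPSS1 differed by -0.21 ± 0.03. The epoxide hydrolase EPHX1 was higher (2.84 ± 0.13), and the thiosulfate sulfurtransferase TST (-4.76 ± 0.21; -3.00 with 32 added), the carbonyl reductase CBR3 (-3.70 ± 0.30; -1.72 with 32 added) and the microsomal glutathione transferase MGST3 (-2.10 ± 0.12) were lower. Another microsomal glutathione transferase, MGST1, was higher (2.16 ± 0.09). Of 7 export and breakdown genes, 1 was higher and 2 lower (42.9% called, against 60.8% of all genes). The drug pump ABCB1 was higher, with 10.81, 10.74 and 10.71 against 6.63, 7.16 and 6.72 (3.92 ± 0.16, limma adjusted p = 5.35e-05). The conjugate pumps ABCC2 (-2.45 ± 0.51; -0.94 with 32 added) and ABCG2 (-1.0 ± 0.12) were lower. The ABCC2 call was lost with the replicate number as a block and that of ABCG2 under hybridization control scaling (-0.18). A second ABCG2 probe set was at the floor in both lines, and the mean of both differed by -0.50.

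**Figure D5:**
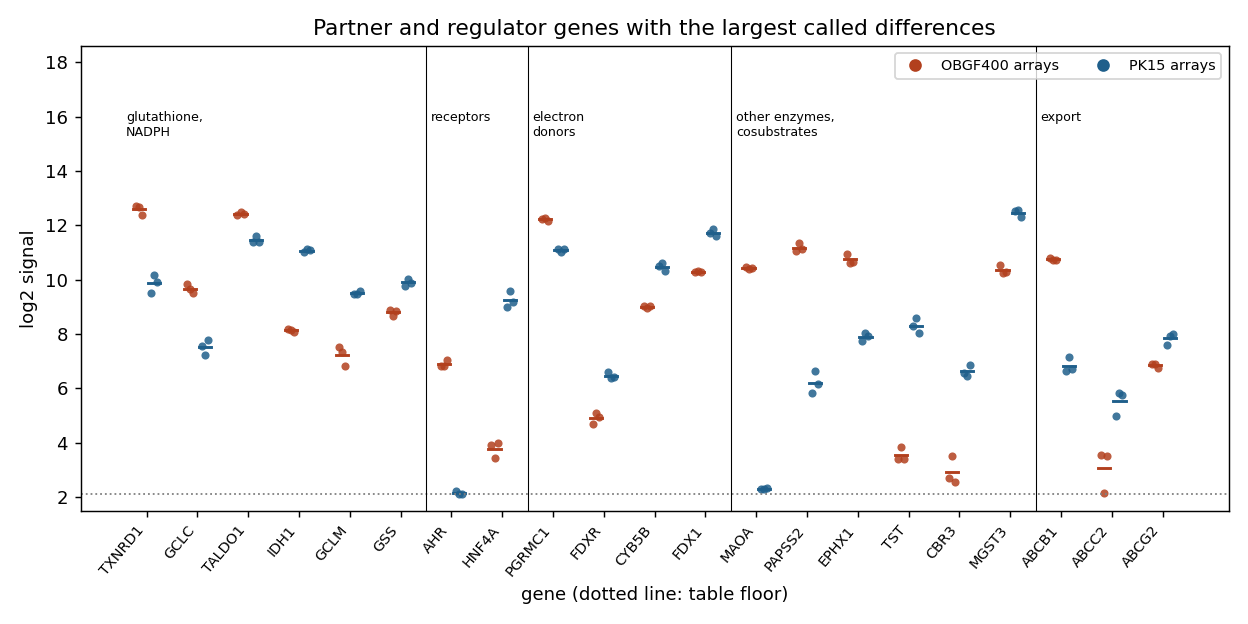
The log2 signal on each array (vertical axis, points; short bars are means of 3 arrays) for the partner and regulator genes with the largest called differences in each of 5 lists (horizontal axis). TXNRD1, GCLC, AHR, MAOA, PAPSS2 and ABCB1 were higher in OBGF400, and IDH1, GCLM, HNF4A, TST and CBR3 lower.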

How the data were processed

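The authors deposited 1 value for each probe set on each array, taken here to be a log2 signal. Per the submitters' processing notes the package affy was used. How the arrays were background-corrected and normalized is not given in the sources used here, and no detection calls were used. On each array 25.8% to 27.3% of probe sets had the lowest value. Of 24123 probe sets, 124 controls were left out. Of the 23999 others, 10069 had 1 symbol in the platform annotation, 198 several and 13732 none, and 9961 of the 10069 were found by Entrez number in RefSeq (Sscrofa11.1), with 0 renamed. A gene was read from its probe set of highest mean signal. The 56 members had 84 probe sets, and 17 members had more than 1. No coordinates or sequences are printed, since no build or sequence table for the probes was used here.

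OBGF400 was set against PK15 by a two-sided limma 3.58.1 fit (lmFit, eBayes) in R 4.3.3, adjusted over 6765 genes, or over 23999 probe sets where so stated. Figures used matplotlib 3.10.9 in Python 3.11.15. On simulated arrays of 6765 genes with known differences, 80.0% of 100 genes changed by 1 and 98.0% of 100 changed by 2 (log2) were recovered, with 12 false calls. The changed genes were few and all clearly above the floor in PK15, the noise was independent, and the smallest spreads were raised. In the real comparison 60.8% of genes were called and many lay at the floor. The simulated shares therefore check the fit and do not give its recovery or false calls here. Exact permutation tests of 3 against 3 arrays cannot go below 0.1, so none is given. The number of arrays limits the precision. Members called with a difference of at least 1 and no overlap are described array by array. Each partner list is represented by its 3 greatest rises and 3 greatest falls where it has them. POR, PAPSS1, MGST1 and the genes at the floor were chosen after their values were seen. Alternatives were quantile normalization, median centring, scaling on 27 hybridization, 18 dap and thr or 36 poly-A control probe sets, 2 filters on dim probe sets, a trended robust variance, 32 added, the mean of probe sets, a threshold of 0.01, the replicate block and leaving out each array. Members and lists were chosen with earlier results of these data known.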

Additional observations from a re-analysis of the deposited data

How the results depend on the processing

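With the control scalings the counts moved. Hybridization control scaling gave 4487 genes higher and 1259 lower in OBGF400 (members 41 and 9, partner and regulator genes 31 and 11), and dap and thr scaling gave 763 and 5219 (members 4 and 47, partner and regulator genes 8 and 35). The members' median difference became 0.82, -0.85 and, on all poly-A controls, -0.33, and that of all genes 0.82, -0.86 and -0.33. These counts stayed within 1.5 times of the main ones under the other alternatives, with 11 to 17 lower and 6 to 11 higher members. Of the 13 members called with a difference of at least 1, 12 kept direction and call in all alternatives run. Among all 23 called members 11 lost their call or turned sign in at least 1 refit, the 10 with smaller differences among them. All 9 members that were not called and had a mean above 3 in a line also changed in at least 1 refit. CYP3A39 lost its call in 4 refits and at the 0.01 threshold, and was not among the genes with a mean above the median. AKR1E2, ALDH1L2, ALDH2, FMO5 and GSTZ1 also lost their calls at the 0.01 threshold.

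Signs turned under hybridization control scaling for CYP1A1 (0.56), CYP24A1 (0.30), CYP2D25 (0.72), FMO5 (0.36) and GSTZ1 (0.18). They turned under dap and thr scaling for AKR1E2 (-0.16), ALDH1B1 (-0.03), ALDH1L2 (-0.01), ALDH2 (-0.49), ALDH3A2 (-0.11), ALDH7A1 (-0.55), CYP19A3 (-0.62), CYP39A1 (-0.80), GSTA4 (-0.45), GSTO1 (-0.25) and NQO2 (-0.76). On all poly-A controls they turned for ALDH7A1 (-0.02), CYP19A3 (-0.09), CYP39A1 (-0.27) and NQO2 (-0.24). CYP39A1 also turned with median centring (-0.02) and without OBGF400 replicate 1 (-0.08), and CYP2D25 without PK15 replicate 2 (0.01). Over the arrays left out in turn CYP39A1 ranged from -0.08 to 0.19 and CYP2D25 from -0.23 to 0.01. A scaling shifts all genes alike by its construction. The cause of the other changes was not tested.

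Over genes, deviations of same-numbered arrays correlated by 0.048, 0.007 and 0.019, and those of other array pairs by -0.051 to 0.037. These values show no clear shared deviation, but they cannot show whether same-numbered pools were handled together. With the replicate block 8 members were higher and 14 lower, ALDH1L2 and FMO5 lost their calls and CYP24A1 gained one (-0.53), and 1478 genes were higher and 2304 lower. Probe sets near the floor limit what can be said of the CYP genes.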

Other observations

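Probe sets that the annotation gives to several genes were outside the comparison. Of 7 such probe sets that name CYP genes, 1 shared by CYP4F55 and CYP4F2, of the fatty acid hydroxylase subfamily, gave 9.38, 9.21 and 9.34 in OBGF400 and 9.63, 9.58 and 9.52 in PK15. The arrays did not overlap, and the difference was -0.26 (limma, adjusted p over probe sets = 0.0231). The other 6, which name CYP4F, CYP4A, CYP2C and CYP19 genes, stayed between 2.13 and 2.34 on all arrays.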
